A study of Mus musculus with 6 samples.

Results

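The cholesterol efflux and LXR genes described here are 10 genes taken by symbol from the deposited FPKM table, which holds 16108 genes. They are the nuclear receptor genes Nr1h2 and Nr1h3, the transporter genes Abca1 and Abcg1, the ubiquitin ligase gene Mylip, the secreted protein genes Apoe, Pltp and Lpl, and the lysosomal cholesterol genes Npc1 and Npc2. The RNA came from RAW264.7 cells, an established mouse macrophage-like line made by transformation with a leukaemia virus. Cells were seeded on acoustic devices, left overnight to attach and kept there for 48 h more. In the acoustics-on group (3 libraries) a function generator drove the devices at 5 kHz and 18 V (peak to peak), and in the acoustics-off group (3 libraries) they were not driven. Both groups used third-passage cells in the same serum-containing medium, and the labels name no other difference between the groups than the acoustic drive. A petri-dish control is named in the series design and is not analysed here. Whether the libraries of a group came from separate cultures is not stated, so the p-values cover only the spread among these 6 libraries, and that spread may be technical.

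The liver X receptors LXRα (Nr1h3) and LXRβ (Nr1h2) are nuclear receptors that bind oxysterols, the oxidised forms of cholesterol, and sit on DNA as pairs with a retinoid X receptor. In sterol-loaded macrophages they switch on genes that move cholesterol out of the cell. ABCA1 hands cholesterol and phospholipid to lipid-poor apolipoprotein A-I, ABCG1 passes it to HDL particles, and MYLIP marks the LDL receptor for degradation. Before any of this, NPC2 and NPC1 carry the cholesterol freed in lysosomes out to the rest of the cell.

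Abca1 and Pltp are the members with the smallest p-values below, so their promoter windows are shown, 250 bases before to 50 bases after the annotated start, 5′ to 3′ on the gene's own strand (RefSeq, GRCm38.p6). The Abca1 window is chr4:53159846-53160145 and the Pltp window chr2:164857659-164857958, both on the minus strand. Capitals mark matches, on either strand, to a pair of motifs. The first is GGTNA followed by 5 bases of any kind and GGTNA again (N is any base), a loose form of the spaced direct repeat bound by LXR and its partner, and the other is the E-box CACGTG. The motifs did not overlap.
Abca1: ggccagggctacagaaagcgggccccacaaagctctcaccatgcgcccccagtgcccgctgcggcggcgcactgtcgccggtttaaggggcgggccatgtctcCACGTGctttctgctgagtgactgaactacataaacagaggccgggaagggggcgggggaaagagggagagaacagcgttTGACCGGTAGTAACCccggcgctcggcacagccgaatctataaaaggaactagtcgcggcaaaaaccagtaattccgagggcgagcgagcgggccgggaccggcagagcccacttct
Pltp: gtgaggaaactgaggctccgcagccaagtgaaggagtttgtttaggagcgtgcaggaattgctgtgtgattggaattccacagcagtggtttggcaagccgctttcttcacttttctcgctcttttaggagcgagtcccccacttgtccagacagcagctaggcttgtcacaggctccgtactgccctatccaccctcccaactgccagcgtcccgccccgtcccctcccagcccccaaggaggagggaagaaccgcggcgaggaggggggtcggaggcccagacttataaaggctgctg
The direct repeat in the Abca1 window lies on the opposite strand, from 67 to 53 bases before the start, and reads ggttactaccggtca there. The E-box lies 147 to 142 bases before the start. Of 32851 windows of this length in the table, 0.718% hold the direct repeat and 7.15% the E-box. Windows were matched for 7 of the 10 members (10 windows in all), and the Abca1 window was the only one of these with a match to either motif. Abcg1, Lpl and Npc1 were not matched. A match describes these letters and is not a binding site shown by these data.

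The libraries did not stand equally close together. The first principal component held 64.4% of the variance. Its scores were -58.8 for acoustics-on replicate 1, -4.66 and -2.54 for acoustics-on replicates 2 and 3, and 19.8 to 23.5 for the acoustics-off libraries. In acoustics-on replicate 1 the difference from the acoustics-off mean went with transcript length across 10446 protein-coding genes (rank correlation -0.59), with a median log2 difference of 0.58 in the shortest quintile of genes and -0.59 in the longest. The rank correlation was -0.47 in acoustics-on replicate 2, with medians of 0.20 and -0.20 in those quintiles, and 0.03 in replicate 3. Each acoustics-off library was set against the mean of the remaining acoustics-off libraries. The rank correlations there were 0.26, -0.32 and 0.04 in replicates 1, 2 and 3. Genes are not independent replicates, so these correlations are descriptions. For each of the 10 genes the difference is therefore also given without acoustics-on replicate 1, and with the trend on length and GC content removed from every library. For the other named genes these settings are given where they change a call or move a difference by over 1.5 times. The part of the length trend and of that library in each result was otherwise not tested. All 6 macrophage markers examined were above 41 FPKM in every library, and their summed level was 18565 to 25768 FPKM with acoustics on and 26898 to 29084 with acoustics off. The highest single value of a marker was 26096 FPKM and the lowest 41.5, so the sums say little about the less abundant markers. The 4 fibroblast markers summed to 0.36 to 1.86 FPKM with acoustics on and 0.098 to 1.62 with acoustics off, and the single epithelial marker with a row stayed under 0.12 FPKM. In bulk RNA, fewer cells of a state and less RNA per cell cannot be told apart.

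All 10 genes passed the filter of at least 0.5 FPKM in at least 3 libraries, and 11664 genes were tested. None of the 10 passed the test with all libraries (limma on log2(FPKM + 1), Benjamini-Hochberg adjusted p under 0.05), where 2.07% of all tested genes were called. At an unadjusted p under 0.05 there were 3 members, Abca1, Pltp and Abcg1, all with lower values with acoustics on. In that direction alone, 9.16% of all tested genes had such a p. In the authors' deposited table, made with another tool on counts, Abca1 and Pltp were called lower, beside 2.49% of the genes with an adjusted p there. For 4 members (Abca1, Abcg1, Mylip and Pltp) every acoustics-on value lay below every acoustics-off value, as it did for 17.7% of all tested genes, and for 0 members did every acoustics-on value lie above. The median log2 difference of the 10 was -0.13, beside -0.03 over all tested genes. Differences on the log2(FPKM + 1) scale understate the change of low genes.

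**Figure D1:**
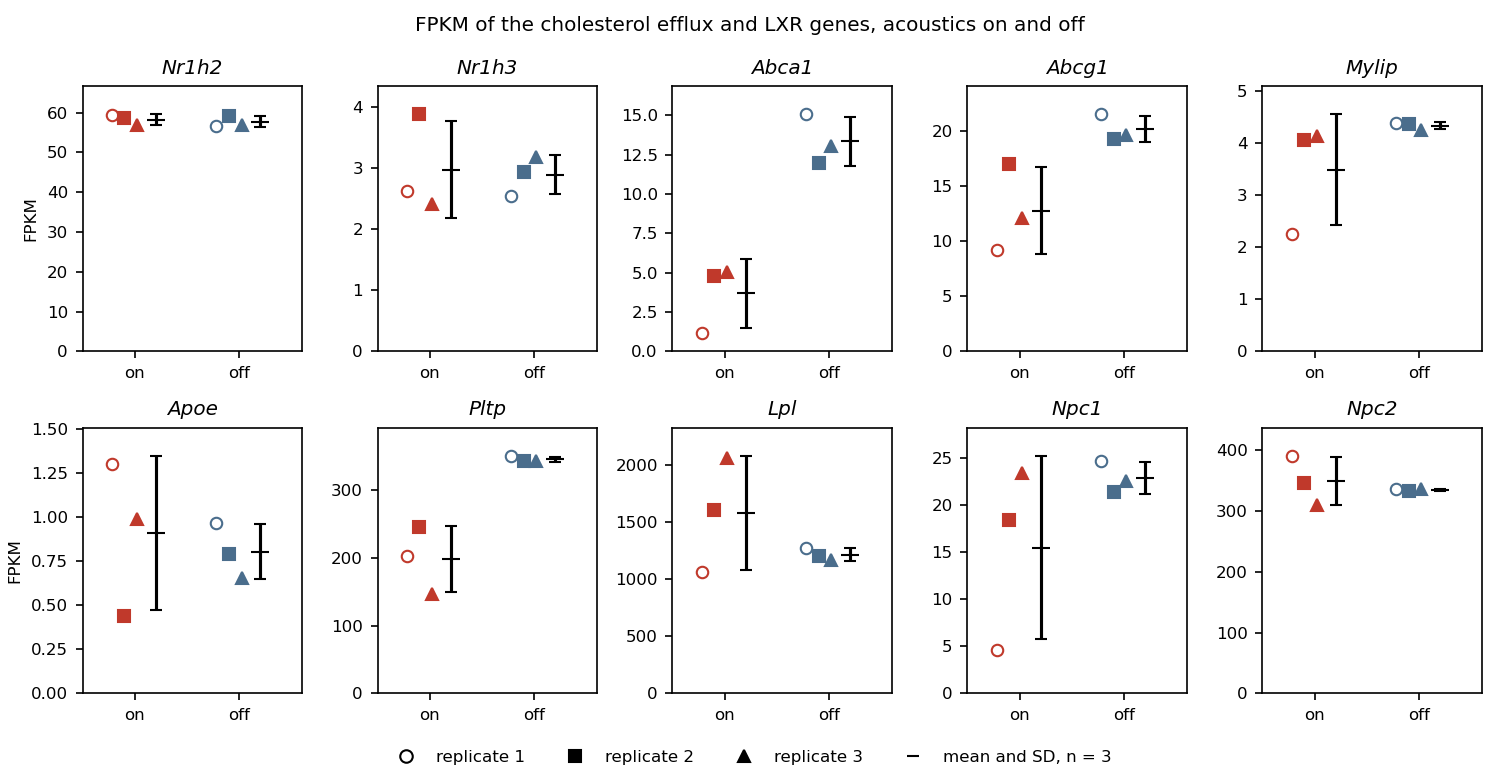
FPKM (vertical axes, each starting at 0) of the 10 genes in each acoustics-on and acoustics-off library, with symbols for the replicates and the mean with its SD (n = 3) in black. The 3 acoustics-on values of Abca1 lie between 1.18 and 5.08 FPKM, under the 3 acoustics-off values, while those of Nr1h2 lie among the acoustics-off values.

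The receptors that give the pathway its name did not differ beyond their spread. Nr1h2 (chromosome 7, 44549616 to 44553951, GRCm38), which encodes the widely expressed LXRβ, had 59.4, 58.6 and 56.8 FPKM with acoustics on and 56.7, 59.3 and 57.0 with acoustics off. The groups overlapped throughout and the log2 difference was 0.01 (SE 0.11, 95% interval -0.24 to 0.27, limma adjusted p = 0.94). Nr1h3 (chromosome 2, 91184061 to 91202834), which encodes LXRα, had 2.63, 3.88 and 2.41 FPKM with acoustics on and 2.55, 2.94 and 3.19 with acoustics off. Acoustics-on replicate 2 was the highest of the 6 libraries and replicate 3 the lowest, so the groups overlapped here too (log2 difference 0.01, SE 0.17, interval -0.40 to 0.42, adjusted p = 0.97). Per length, Nr1h2 transcripts outnumbered Nr1h3 transcripts in every library, by 15.1 to 23.6 times with acoustics on and 17.9 to 22.2 times with acoustics off. Their longest coding transcripts have 1999 bases (Nr1h2) and 1955 bases (Nr1h3), where the length and GC trend of acoustics-on replicate 1 stood at 0.51 and 0.47 log2 units. With the trend removed the log2 differences were -0.16 for Nr1h2 and -0.11 for Nr1h3, and neither passed (adjusted p = 0.51 and 0.74). Without acoustics-on replicate 1 they were 0.00064 for Nr1h2 and 0.07 for Nr1h3, again without passing (limma adjusted p = 0.997 and 0.83).

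Neither transporter gene passed with all libraries, and for both every acoustics-on value lay below every acoustics-off value. Abca1 (chromosome 4, 53030787 to 53159895, minus strand) had 1.18, 4.81 and 5.08 FPKM with acoustics on, against 15.1, 11.97 and 13.1 with acoustics off. Every acoustics-on library was below every acoustics-off library, and acoustics-on replicate 1 was the lowest by a wide margin. The means were 3.69 ± 2.18 FPKM with acoustics on and 13.4 ± 1.57 with acoustics off (SD, n = 3 each), so the acoustics-off mean was 3.62 times the acoustics-on mean. The log2 difference was -1.75 (SE 0.39, interval -2.66 to -0.84) and missed the threshold (limma adjusted p = 0.082). The 3 acoustics-on libraries lay -2.72, -1.30 and -1.24 log2 units from the acoustics-off mean.

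Abca1 passed when acoustics-on replicate 1 was left out (log2 difference -1.27, SE 0.11, limma adjusted p = 0.0032), a setting in which 7.83% of all tested genes passed. It did not pass with any other 1 library left out (limma adjusted p from 0.086 to 0.32). It also passed with the length and GC trend removed (-1.43, SE 0.28, adjusted p = 0.041), where 4.42% passed, and with both steps together (-1.09, adjusted p = 0.0048), where 11.3% passed. With library weights, where 16.1% passed, 3 members did, Abca1 (-1.34, adjusted p = 0.00093), Pltp (-0.62, 0.012) and Lpl (0.45, 0.032). Within the acoustics-on group replicate 2 had by far the largest weight, against 0.091 for replicate 1 and 0.34 for replicate 3. The acoustics-on side of these 3 calls therefore rests mainly on replicate 2. With 10262 bases, the Abca1 transcript is the longest of the members. At its length and GC content the trend stood at -0.93, -0.38 and 0.01 in acoustics-on replicates 1, 2 and 3. The measured Abca1 differences in the same replicates were -2.72, -1.30 and -1.24, and the part of the trend in them was not tested. With the trend removed the Abca1 values were 1.93, 5.39 and 4.34 FPKM with acoustics on and 12.4, 10.8 and 11.3 with acoustics off, still without overlap. In the authors' deposited table its log2 fold change was -1.86 (standard error 0.46, adjusted p = 0.0017 there).

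Abcg1 (chromosome 17, 31057675 to 31117988), the gene of the HDL-directed transporter, had 9.18, 17.0 and 12.1 FPKM with acoustics on and 21.5, 19.3 and 19.6 with acoustics off. The groups did not overlap, but acoustics-on replicate 2 came close to the acoustics-off libraries. The means were 12.8 ± 3.95 FPKM with acoustics on and 20.2 ± 1.18 with acoustics off, with a log2 difference of -0.66 (SE 0.21, interval -1.16 to -0.16, adjusted p = 0.17). It did not pass without acoustics-on replicate 1 (-0.46, adjusted p = 0.099), with the trend removed (-0.42, adjusted p = 0.23), or in the authors' deposited table (adjusted p = 0.090 there). With the trend removed the groups overlapped, since acoustics-on replicate 2 then had 18.3 FPKM and the lowest acoustics-off library 18.0. The ratio of Abcg1 to Abca1 FPKM was 7.79, 3.54 and 2.38 in acoustics-on replicates 1, 2 and 3, and 1.43 to 1.61 in the acoustics-off replicates, so the ratios did not overlap.

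Mylip (chromosome 13, 45389742 to 45412022), also called Idol, had 2.25, 4.07 and 4.13 FPKM with acoustics on and 4.39, 4.36 and 4.26 with acoustics off. Its groups did not overlap, although acoustics-on replicates 2 and 3 sat just under the acoustics-off values and replicate 1 alone was far below. The log2 difference was -0.28 (SE 0.20, interval -0.75 to 0.19, adjusted p = 0.43), and -0.07 without acoustics-on replicate 1 (adjusted p = 0.68). The trend at its length of 3065 bases was -0.05 in that library, so the low value of 2.25 FPKM was 2.32 FPKM with the trend removed (log2 difference -0.27, adjusted p = 0.41).

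None of the 3 secreted protein genes passed with all libraries. Pltp (chromosome 2, 164839518 to 164857711, minus strand), which encodes the phospholipid transfer protein that remodels HDL, had 203.0, 245.2 and 147.6 FPKM with acoustics on, against 350.2, 344.0 and 343.7 with acoustics off. The acoustics-off libraries were nearly level, and all acoustics-on libraries were well below them with replicate 3 lowest. The means were 198.6 ± 49.0 FPKM with acoustics on and 346.0 ± 3.70 with acoustics off. The log2 difference was -0.83 (SE 0.20, interval -1.30 to -0.36) and missed the threshold (limma adjusted p = 0.098). Pltp passed with the length and GC trend removed (-0.95, SE 0.18, adjusted p = 0.036), and stayed just short without acoustics-on replicate 1 (-0.86, adjusted p = 0.053). Its transcript of 2226 bases is among the shorter ones, and the trend in acoustics-on replicate 1 stood at 0.36, opposite in sign to the measured difference of -0.77 there. In the authors' deposited table its log2 fold change was -0.80 (standard error 0.22, adjusted p = 0.0073 there).

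Lpl (chromosome 8, 68880491 to 68907448), the gene of the lipase that frees fatty acids from lipoprotein triglyceride, was the most abundant of the members. It had 1069, 1613 and 2063 FPKM with acoustics on and 1278, 1205 and 1167 with acoustics off. Acoustics-on replicates 2 and 3 were above all acoustics-off libraries, and replicate 1 was below them. The log2 difference was 0.33 (SE 0.25, interval -0.27 to 0.93, adjusted p = 0.46). Without acoustics-on replicate 1 it was 0.58 (SE 0.14, adjusted p = 0.060), and with that library left out and the trend removed as well it passed (0.60, SE 0.11, adjusted p = 0.024). With the trend removed and no library left out, the groups no longer overlapped: Lpl had 1280, 1603 and 1968 FPKM with acoustics on and 1222, 1176 and 1109 with acoustics off (log2 difference 0.45, adjusted p = 0.17).

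Apoe (chromosome 7, 19696109 to 19699188), the gene of apolipoprotein E, was the lowest of the members and RAW264.7 cells are known to make little of it. It had 1.30, 0.44 and 0.99 FPKM with acoustics on and 0.97, 0.79 and 0.65 with acoustics off. The acoustics-on libraries held both the highest and the lowest value. The log2 difference was 0.06 (SE 0.19, interval -0.39 to 0.51, adjusted p = 0.87). In the authors' deposited table its mean was 32.3 normalised counts, for which the counting error alone is 17.6% of the mean. Its values averaged 0.91 ± 0.44 FPKM with acoustics on and 0.80 ± 0.16 with acoustics off (SD, n = 3 each), so the acoustics-on libraries spread more widely than that counting error. Without acoustics-on replicate 1 the log2 difference was -0.091 (limma adjusted p = 0.77), and with the trend removed it was -0.081 (0.79).

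Neither of the lysosomal genes passed with all libraries. Npc1 (chromosome 18, 12189692 to 12236400), a membrane protein that passes cholesterol through the lysosomal wall, had 4.61, 18.3 and 23.4 FPKM with acoustics on and 24.7, 21.4 and 22.5 with acoustics off. Acoustics-on replicate 1 was far below every other library, and replicate 3 lay within the acoustics-off range. The log2 difference was -0.78 with a wide interval (SE 0.51, -1.99 to 0.42, adjusted p = 0.40), and -0.13 (SE 0.12, adjusted p = 0.52) without acoustics-on replicate 1. In that library Npc1 lay -2.09 from the acoustics-off mean, where the trend at its 5224 bases stood at -0.48, so removing the trend left it at 5.93 FPKM (log2 difference over all libraries -0.58, adjusted p = 0.44). Npc2 (chromosome 12, 84754562 to 84773152), the soluble partner that hands cholesterol to NPC1, had 389.7, 346.4 and 310.3 FPKM with acoustics on and 335.5, 332.1 and 335.6 with acoustics off. The acoustics-on values spread to both sides of the tight acoustics-off values (log2 difference 0.05, SE 0.14, interval -0.28 to 0.39, adjusted p = 0.83). It was -0.029 without acoustics-on replicate 1 (limma adjusted p = 0.87) and 0.11 with the trend removed (0.58). The ratio of Npc2 to Npc1 FPKM was 84.6 in acoustics-on replicate 1, 18.9 and 13.3 in acoustics-on replicates 2 and 3, and 13.6 to 15.6 with acoustics off.

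**Figure D2:**
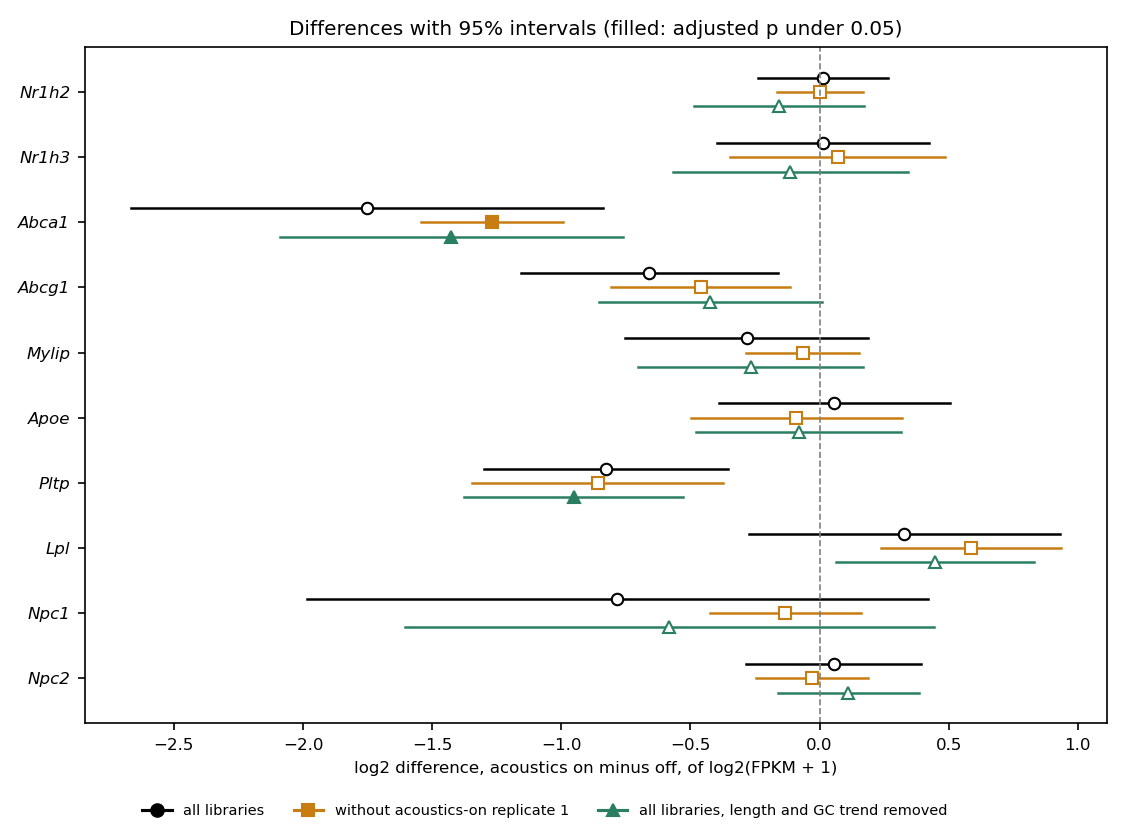
Log2 difference of log2(FPKM + 1), acoustics on minus off (horizontal axis), with 95% intervals for each of the 10 genes, under 3 settings given by colour and symbol. Filled symbols have an adjusted p under 0.05: Abca1 without acoustics-on replicate 1 (-1.27), and Abca1 (-1.43) and Pltp (-0.95) with the length and GC trend removed.

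**Figure D3:**
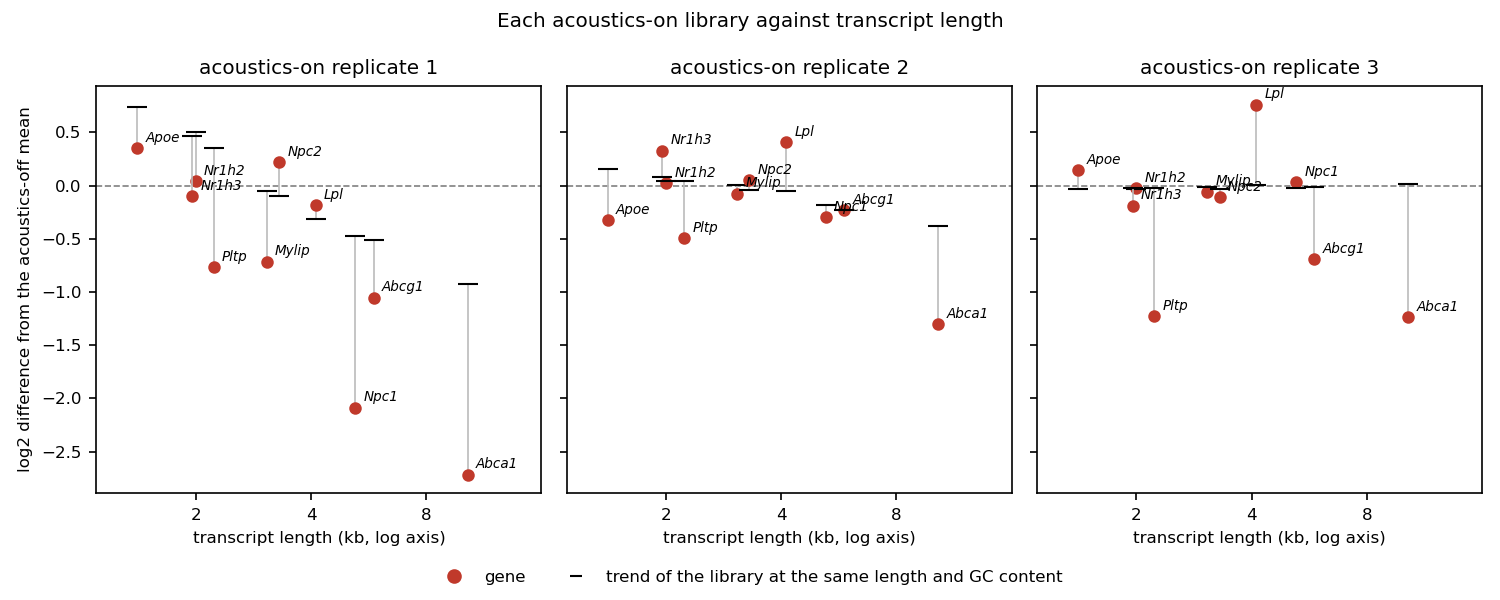
Log2 difference of each acoustics-on library from the acoustics-off mean (vertical axis) against the length of the longest coding transcript (kilobases, log axis) for the 10 genes, with bars for the fitted trend of that library at the same length and GC content. In replicate 1 Abca1 lies at -2.72 and its trend bar at -0.93, while in replicate 3 it lies at -1.24 and its bar at 0.01.

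Within each group the levels of the members spanned 3 orders of magnitude, here compared as FPKM, which is per length. With acoustics on the order of the means was Lpl (1581 FPKM), Npc2 (348.8), Pltp (198.6), Nr1h2 (58.3), Npc1 (15.4), Abcg1 (12.8), Abca1 (3.69), Mylip (3.48), Nr1h3 (2.97) and Apoe (0.91). In that group the ranges of Npc1 and Abcg1, of Abca1 and Mylip, and of Mylip and Nr1h3 overlapped. Within libraries, the first gene of each of these pairs was the lower in acoustics-on replicate 1 and the higher in replicates 2 and 3. With acoustics off the order had Pltp (346.0 FPKM) before Npc2 (334.4). Only Npc1 (22.8) and Abcg1 (20.2) overlapped there as neighbours, although Npc1 was the higher in each acoustics-off library. The range of Abca1 overlapped that of Mylip with acoustics on, whereas with acoustics off its lowest value of 11.97 FPKM stood clear of 4.39, the highest of Mylip. As a place among the 11664 tested genes, the Abca1 mean was above 24.7% of them with acoustics on and above 53.4% with acoustics off.

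The genes whose values followed these 2 members most closely were found by the root mean square difference, over the 6 libraries, of log2(FPKM + 1) from the acoustics-off mean, among 10461 other tested protein-coding genes. Nearest to Abca1 were Kbtbd11 (0.27 log2 units), Cd300ld3 (0.28) and Cd83 (0.29). Nearest to Pltp were Ifitm2 (0.05), Tmem176b (0.05) and Ppfia4 (0.07). Kbtbd11 had 8.38, 23.0 and 15.1 FPKM with acoustics on and 46.5, 42.3 and 44.5 with acoustics off. Ifitm2 had 1139, 1267 and 822 FPKM with acoustics on and 1961, 1813 and 1812 with acoustics off. Both Cd300ld3 and Ifitm2 have close relatives in the genome, so their counting is uncertain. None of the 6 passed the test with all libraries (limma adjusted p from 0.063 to 0.19).

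Around the 10 genes, 52 further genes of sterol handling were listed in 7 groups, and 46 of them were tested. Of these, 2 rose (Cd5l and Cd36) and 1 fell (Arl4c), beside 2.07% of all tested genes called in either direction. The median log2 difference was -0.20, beside -0.03 over all tested genes. For 17 of the 46 every acoustics-on value lay below every acoustics-off value and for 4 above, where 17.7% and 17.1% of all tested genes did so. With the length and GC trend removed 3 of the 46 rose (also Plin2) and 2 fell (also Cyp27a1), where 4.42% of all tested genes were called. Without acoustics-on replicate 1 there were 4 called in each direction, where 7.83% of all tested genes were called. In the authors' deposited table, Cd5l (log2 fold change 3.70, adjusted p = 6.1e-21 there), Cd36 (0.81, 2.6e-06) and Plin2 (1.18, 6.5e-05) were called higher. Arl4c (-1.70, 7.0e-06) and Scarb2 (-0.41, 0.047) were called lower there. Of the 14522 genes with an adjusted p there, 737 were called higher and 361 lower.

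Other LXR target genes gave the widest span. Of 12 listed, 10 were tested, 1 rose and 1 fell. Arl4c, a small GTPase gene linked to cholesterol transport to the cell surface, had 3.67, 8.54 and 5.17 FPKM with acoustics on, against 21.8, 16.9 and 17.8 with acoustics off (log2 difference -1.60, SE 0.26, limma adjusted p = 0.034). Its groups were well apart, in the same direction as Abca1. Cd5l, which encodes a secreted inhibitor of macrophage apoptosis, had 204, 68.3 and 123 FPKM with acoustics on and 8.82, 11.5 and 9.97 with acoustics off (3.45, SE 0.36, adjusted p = 0.0094). The Cd5l call was lost without acoustics-on replicate 3 or without any 1 acoustics-off library (limma adjusted p from 0.052 to 0.059), and the Arl4c call in those same fits (0.099 to 0.17) and with no filter (0.067). Mertk, a receptor gene for the uptake of dying cells, averaged 3.22 ± 1.28 FPKM with acoustics on and 5.46 ± 0.66 with acoustics off (adjusted p = 0.20), and the phospholipid remodelling gene Lpcat3 averaged 30.2 ± 7.0 FPKM with acoustics on and 36.5 ± 1.32 with acoustics off (adjusted p = 0.39). The Lpcat3 difference was -0.29 with all libraries and -0.088 without acoustics-on replicate 1.

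Of 7 uptake genes 5 were tested and 1 rose. Cd36, a scavenger receptor gene for oxidised LDL, had 450, 379 and 381 FPKM with acoustics on and 232, 223 and 236 with acoustics off (log2 difference 0.80, SE 0.14, limma adjusted p = 0.039). Every acoustics-on library was above every acoustics-off library, but the call was lost with no filter (limma adjusted p = 0.056), without acoustics-on replicate 2 or 3 (0.052 and 0.063) and without any 1 acoustics-off library (0.24 to 0.25). The scavenger receptor gene Msr1 averaged 157.3 ± 65.2 FPKM with acoustics on and 228.7 ± 12.2 with acoustics off (adjusted p = 0.28), and the HDL receptor gene Scarb1 averaged 77.5 ± 6.88 FPKM with acoustics on and 71.9 ± 1.11 with acoustics off (adjusted p = 0.62). Without acoustics-on replicate 1 the Msr1 difference was -0.32, against -0.62 with all libraries. The Scarb1 difference was 0.10 with all libraries, 0.036 without acoustics-on replicate 2 and 0.16 without replicate 3. With the trend removed Scarb1 averaged 76.0 ± 10.0 FPKM with acoustics on and 73.8 ± 1.00 with acoustics off. Of 5 genes for cholesteryl ester storage and hydrolysis, 0 passed with all libraries. Without acoustics-on replicate 1, Plin2 and Lipa rose and Soat1 fell, where 7.83% of all tested genes were called. Lipa had 365, 738 and 685 FPKM with acoustics on and 436, 450 and 459 with acoustics off, so the groups overlapped. Its log2 difference with all libraries was 0.34 (SE 0.27, limma adjusted p = 0.48). The acoustics-on replicates lay -0.30, 0.72 and 0.61 log2 units from the acoustics-off mean. Plin2, which coats lipid droplets, had 451, 282 and 269 FPKM with acoustics on and 145, 153 and 144 with acoustics off, just short of the threshold (1.13, SE 0.22, adjusted p = 0.052), and it passed with the trend removed (0.95, adjusted p = 0.016) and without acoustics-on replicate 1 (0.89, adjusted p = 0.0029). Soat1, which esterifies cholesterol for storage, averaged 129.8 ± 38.3 FPKM with acoustics on and 201.7 ± 4.16 with acoustics off (adjusted p = 0.20). Its log2 difference was -0.68 with all libraries. It passed at -0.41 without acoustics-on replicate 1 (limma adjusted p = 0.033), and was -0.30 with the trend removed (0.20).

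**Figure D4:**
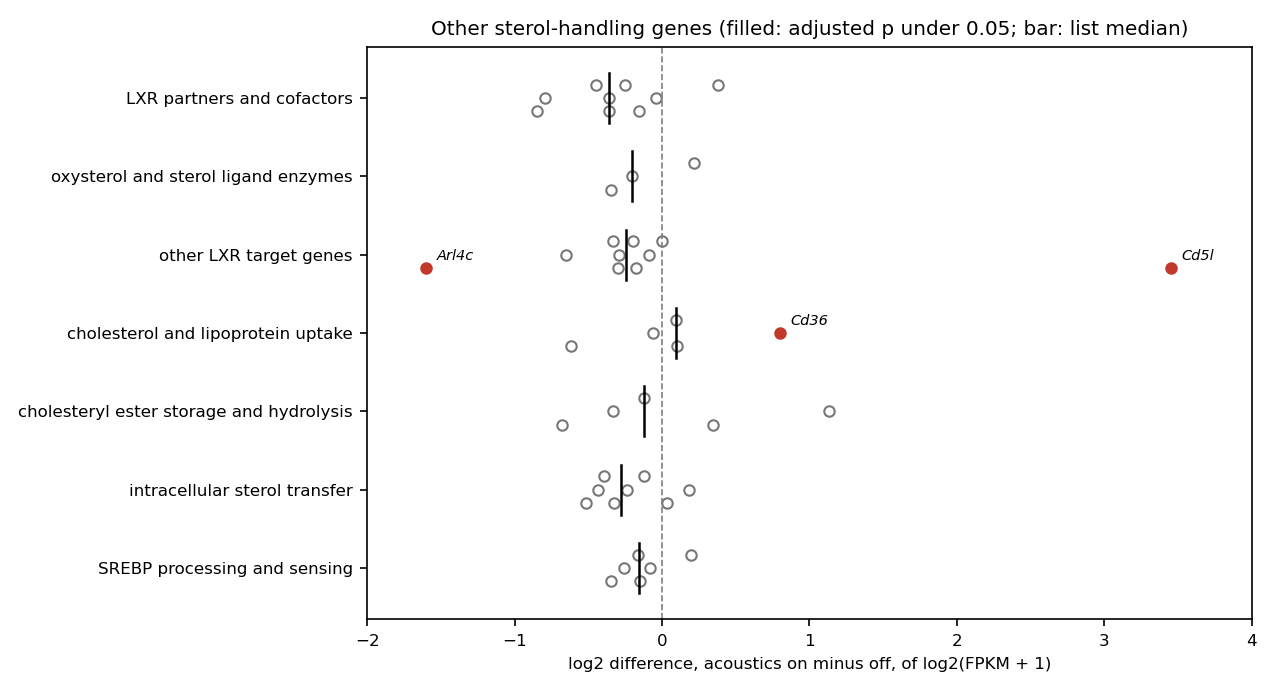
Log2 difference of log2(FPKM + 1), acoustics on minus off (horizontal axis), for the 46 tested genes of the 7 sterol-handling groups (rows), with a bar at each group's median. Filled points have an adjusted p under 0.05: Cd5l (3.45), Cd36 (0.80) and Arl4c (-1.60).

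In the other 4 groups 0 of 26 tested genes passed with all libraries. After removal of the trend 1 did (Cyp27a1), where 4.42% of all tested genes passed. Without acoustics-on replicate 1 there were 2 (Cyp27a1 and Ncoa3), where 7.83% of all tested genes passed. Scarb2 alone among the 26 was called in the authors' deposited table (lower, adjusted p = 0.047 there), beside 2.49% of the genes with an adjusted p there called lower. Among 9 partners and cofactors of LXR, 8 had negative log2 differences. The coactivator gene Ncoa3 averaged 14.1 ± 5.33 FPKM with acoustics on and 24.9 ± 1.22 with acoustics off (adjusted p = 0.17), and its 7531-base transcript had a trend of -0.73 in acoustics-on replicate 1. Its log2 difference was -0.85 with all libraries and -0.53 with the trend removed (limma adjusted p = 0.094), and it passed at -0.52 without acoustics-on replicate 1 (0.028). The retinoid X receptor gene Rxrb averaged 42.3 ± 1.14 FPKM with acoustics on and 50.5 ± 0.56 with acoustics off without overlap (log2 difference -0.25, adjusted p = 0.25). Among 3 tested enzymes that make or use LXR ligands, Cyp27a1, which makes an oxysterol, averaged 10.6 ± 0.44 FPKM with acoustics on and 13.8 ± 0.39 with acoustics off (-0.34, adjusted p = 0.18). Cyp27a1 passed with the trend removed (-0.51, adjusted p = 0.048) and without acoustics-on replicate 1 (-0.37, 0.042). Cyp51, an enzyme of sterol synthesis, averaged 37.8 ± 2.43 FPKM with acoustics on and 32.4 ± 0.57 with acoustics off (0.22, adjusted p = 0.31). Of the 8 sterol transfer genes, the lysosomal membrane gene Scarb2 averaged 19.7 ± 1.00 FPKM with acoustics on and 26.2 ± 1.78 with acoustics off (-0.39, adjusted p = 0.15), and Osbpl2 averaged 25.7 ± 7.81 FPKM with acoustics on and 34.0 ± 0.58 with acoustics off (adjusted p = 0.32). Of the 6 genes that process and sense for the sterol regulator SREBP, Srebf2 averaged 50.8 ± 7.58 FPKM with acoustics on and 64.5 ± 1.17 with acoustics off (adjusted p = 0.24), and the protease gene Mbtps1 averaged 17.4 ± 3.66 FPKM with acoustics on and 20.8 ± 0.55 with acoustics off (adjusted p = 0.40). Without acoustics-on replicate 1 the log2 differences were -0.17 for Osbpl2, -0.23 for Srebf2 and -0.085 for Mbtps1, against -0.44, -0.35 and -0.26 with all libraries. Removing the trend put Scarb2 at -0.21, Srebf2 at -0.19 and Mbtps1 at -0.11. With library weights, where 16.1% of all tested genes passed, Ncoa3, Rxrb, Cyp27a1, Cyp51, Scarb2 and Srebf2 passed (limma adjusted p from 0.0077 to 0.044). The acoustics-on side of that fit leaned on replicate 2. The genes named here for these groups were picked by their small p in these same libraries. How many of them passed therefore cannot be set beside that share.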

How the data were processed

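RNA-seq of 6 RAW264.7 libraries was used. GRCm38 was the build and DESeq2 1.38.2, Salmon 1.4.0, STAR 2.7.11 and Trim Galore 0.6.8 were used, per the submitters' processing notes, which state no settings here. The labels' protocols name a ribosomal RNA depletion kit and the molecule field names polyA RNA. The deposited expression table gives FPKM for each gene in each library. In another, on minus off, the authors deposited the mean signal (normalised counts) of each gene, its log2 fold change and standard error, the test score and the p-values. Counts per library were not used here, and total depth per library is unknown.

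The members and gene lists were chosen with earlier results of these data known. Genes with at least 0.5 FPKM in at least 3 libraries were tested with limma 3.58.1 (R 4.3.3, trended robust prior) on log2(FPKM + 1), on minus off, with Benjamini-Hochberg adjustment over all tested genes. The test was checked on simulated data with the same spread in every library and no length trend. That check therefore does not cover the unequal libraries found here. Named pathway genes were those past the threshold and, besides, the 2 with the smallest p in each list. Lipa was added after its call without acoustics-on replicate 1 was seen. The genes nearest in pattern to the 2 members with the smallest p were also named. The alternative that removes length and GC trends fitted, per library, a loess curve (span 0.5) to length and GC share, taken from the longest coding transcript in GENCODE M21, over 9933 protein-coding genes with a mean of at least 1 FPKM, and divided it out. Left-out libraries kept the same tested genes. Library weights used limma's gene-by-gene method, since the default did not converge. No value above 0 was equal in any pair of libraries (0 found). Coordinates are GENCODE M21, by symbol.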

Additional observations from a re-analysis of the deposited data

How the results depend on the processing

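The number of genes past the threshold was 242 with all libraries. It was 150 with no filter, 516 with the length and GC trend removed, and 1319 with that trend removed and acoustics-on replicate 1 left out. With library weights it was 1882. The weights ran from 0.091 for acoustics-on replicate 1 to 3.28 for acoustics-off replicate 3. Acoustics-on replicate 3 was weighted down as well (0.34), so the acoustics-on side of that fit leaned on replicate 2. With 1 library left out the number of genes ranged from 19 (without acoustics-off replicate 2) to 913 (without acoustics-on replicate 1). The count of members called was 0 with all libraries, 2 with the trend removed, 3 with the trend removed and acoustics-on replicate 1 left out, 3 with library weights, and 0 to 1 with 1 library left out. The cause of these differences was not tested.

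Abca1 passed at -1.34 (log2 difference) with library weights, -1.43 with the trend removed and -1.09 with the trend and acoustics-on replicate 1 removed. Pltp passed at -0.62, -0.95 and -0.87 in the same 3 settings, and Lpl at 0.45 with library weights and 0.60 with the trend and acoustics-on replicate 1 removed. With 1 library left out Abca1 ranged from -2.01 to -1.27. There it passed only without acoustics-on replicate 1 (limma adjusted p = 0.0032), with 0.086 to 0.32 in the other leave-one-out fits. Pltp passed in no leave-one-out fit, and its limma adjusted p reached 0.40 over the alternative settings. Members near 0 changed sign without passing. With upper-quartile scaling Nr1h2 was at -0.023 and Nr1h3 at -0.015. With the trend removed Nr1h2 was at -0.16, Nr1h3 at -0.11 and Apoe at -0.081, and with acoustics-on replicate 1 left out as well Nr1h2 was at -0.0076 and Apoe at -0.11. Apoe was at -0.20 with library weights. With 1 library left out Nr1h3 ranged from -0.14 to 0.11, Apoe from -0.091 to 0.25 and Npc2 from -0.029 to 0.14. Named pathway genes had 1 direction in each of these settings, but Cd5l lost its call in 4 leave-one-out fits (adjusted p up to 0.059), Arl4c in the same 4 and with no filter, and Cd36 in 5 and with no filter.

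The replicate numbers are shared by both groups, but deviations of same-numbered libraries correlated at -0.07, -0.02 and -0.004, so the numbers gave no sign of pairing. With the replicate block, 179 genes and 0 members passed, and Cd36 did not (adjusted p = 0.11). The members' block log2 differences were those of the unblocked fit (Abca1 -1.75, adjusted p = 0.078). Apoe was not tested with a filter of at least 1 FPKM. The counting error of Apoe is 17.6% of its mean, less than the spread of its acoustics-on libraries.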

Other observations

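Of the sterol-handling genes listed, 2 uptake receptor genes lay under the filter and were not tested, and they are named here after their values were seen. Olr1, the gene of the oxidised LDL receptor LOX-1, had 0.20, 0.43 and 0.75 FPKM with acoustics on and 0.55, 0.08 and 0.15 with acoustics off, so the groups overlapped. Vldlr, the gene of the VLDL receptor, had 0.11, 0.05 and 0.03 FPKM with acoustics on and 0.28, 0.04 and 0.05 with acoustics off, again with overlap.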
